A study of Rattus norvegicus with 30 samples.

Results

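The 8 genes described here are Vegfa, Flt1, Kdr, Nrp1, Egfl7, Hif1a, Adm and Edn1, which encode the vascular endothelial growth factor VEGF-A, its receptors, and hypoxia-linked vascular factors. They were taken by symbol from the table that pairs the array's probe sets with genes, which gave 12 probe sets of 8799 and 8 genes of 4737 symbols on the array. The list was chosen by name with results of these data known, and so also selected on measured values, among them a higher Egfl7 signal in unprotected ischaemia than in control hearts and a lower Nrp1 signal in anaesthetic preconditioning than in unprotected ischaemia. Values of the 8 genes in those 2 comparisons, and of Nrp1 and Egfl7 in any test that holds them, are descriptions with no p-value. Counts that include them are printed beside the share of all genes, and nothing is read from them.

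The RNA, total RNA from rat left ventricle, was hybridised to 30 Affymetrix arrays, with 5 biological replicates in each of 6 groups. CTL hearts were controls, ISCH hearts were exposed to ischaemia without preconditioning, IPC hearts received ischaemic preconditioning, and APC hearts received preconditioning with an anaesthetic. IPC_TRI and APC_TRI are the trigger groups of the 2 kinds of preconditioning, read here as the trigger without the later test ischaemia, which the labels do not spell out. The anaesthetic, the durations, and the strain, sex and age of the rats are missing from the labels used here. The keywords speak of ischaemia with reperfusion.

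VEGF-A is a secreted growth factor that acts on endothelial cells through the receptor tyrosine kinases Flt1 (VEGFR-1) and Kdr (VEGFR-2), with Nrp1 as a co-receptor. Hif1a encodes the oxygen-regulated subunit of hypoxia-inducible factor 1, which is controlled mainly at the level of protein stability and which binds a short core sequence near its target genes. In heart muscle VEGF-A is made largely by cardiomyocytes, and its receptors sit mainly on endothelium. The targets of the factor include Vegfa, Flt1, Edn1 (endothelin 1, a peptide that constricts vessels) and Adm (adrenomedullin, a peptide that dilates them), and Egfl7 encodes a protein secreted by endothelial cells.

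The sequences before the starts of Nrp1, Adm and Edn1 are shown because these genes carried differences between groups and each had 1 start in the RefSeq promoter table (build GRCr8). They are the 250 bases before the start, 5′ to 3′ on the gene's strand, with matches to the core ACGTG or GCGTG on either strand in capitals. The 3 windows lie at chr19:73256307-73256556 (plus strand), chr1:174179950-174180199 (plus strand) and chr17:22666688-22666937 (minus strand).
Nrp1: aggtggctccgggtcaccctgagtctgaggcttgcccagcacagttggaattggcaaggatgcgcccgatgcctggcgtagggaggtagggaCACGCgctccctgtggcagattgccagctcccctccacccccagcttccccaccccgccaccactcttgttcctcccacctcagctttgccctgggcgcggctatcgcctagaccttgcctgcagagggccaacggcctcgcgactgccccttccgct
Adm: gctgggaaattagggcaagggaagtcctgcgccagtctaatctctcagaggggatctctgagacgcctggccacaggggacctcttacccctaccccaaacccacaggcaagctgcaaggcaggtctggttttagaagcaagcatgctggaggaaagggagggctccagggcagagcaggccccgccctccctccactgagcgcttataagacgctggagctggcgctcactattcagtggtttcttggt
Edn1: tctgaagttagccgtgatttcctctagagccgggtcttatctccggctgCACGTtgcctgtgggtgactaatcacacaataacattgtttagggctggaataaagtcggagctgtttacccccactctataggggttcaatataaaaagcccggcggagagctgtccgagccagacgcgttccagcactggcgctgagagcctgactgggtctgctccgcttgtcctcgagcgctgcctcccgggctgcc
The Edn1 window held 1 match to ACGTG, read on the reverse strand, which began 201 bases before the start. The Nrp1 window held 1 match to GCGTG, also on the reverse strand, which began 158 bases before the start. The Adm window held neither core. All 8 genes had an entry, with 10 windows in all, since Vegfa and Egfl7 had 2 each. Of the 10 windows 2 (Hif1a and Edn1) held ACGTG, against 16.6% of all 33469 windows of that length, and 3 (Flt1, Kdr and Nrp1) held GCGTG, against 25.9%. The 3 matches of Hif1a include 2 that overlap, the core and its reverse complement in CACGTG. A match is a run of letters and not a shown binding site.

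Signals are the deposited intensities, on a linear scale and scaled to a common trimmed mean, so levels are compared between arrays and never between probe sets. Changes are differences of normalized log2(signal + 16) ± standard error (SE) from limma, with 5 arrays per group; the pseudocount makes them smaller than the true change for dim genes. A gene passed at a Benjamini-Hochberg adjusted p under 0.05 over all 5244 probe sets tested. Of the 12 probe sets of the 8 genes, 11 were bright enough to be tested. Each gene is read through its brightest probe set unless another is named. The 2% trimmed mean was 501 on all arrays, and their number limits the precision. IPC_TRI arrays resembled their own group least, with a mean correlation of 0.85 to 0.90, against 0.90 to 0.97 in the other groups. The 10 cardiomyocyte markers tested of 12 listed had a summed signal of at least 192544 on every array. Against CTL 3 of the 10 were lower in ISCH (Myh6, Ryr2 and Atp2a2), where 8.30% of all genes passed. In IPC_TRI 3 were lower (Myh6, Ryr2 and Pln, 15.7% of all genes) and in APC_TRI 1 (Pln, 7.89%). Their summed signal went the other way, with a median of 246455 in CTL, 310564 in ISCH, 370314 in IPC_TRI and 343506 in APC_TRI. The summed signal of 3 atrial markers ran from 1953 to 12879 in APC_TRI and from 999 to 3798 in the other groups.

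**Figure D1:**
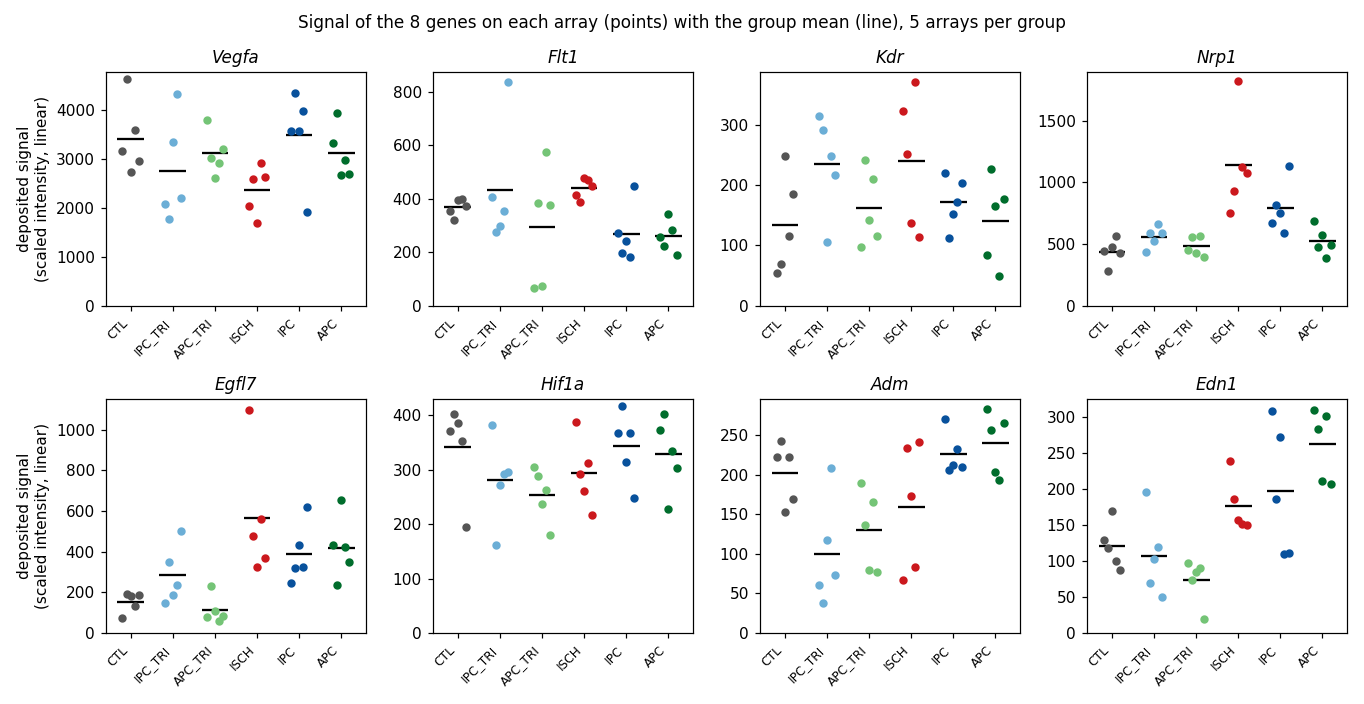
Deposited signal (linear scale) of the brightest probe set of each of the 8 genes, by group; each point is 1 array and each line the mean of 5 arrays. Nrp1 and Egfl7 are highest in ISCH, Adm is lowest in IPC_TRI, Edn1 is highest in APC, and Hif1a stays between 162 and 417 on all arrays.

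Across the 6 groups 4 of the 8 genes passed the F test of any difference (Nrp1, Egfl7, Adm and Edn1), where 30.5% of all 3155 genes did; the test holds the values on which Nrp1 and Egfl7 were chosen. In ISCH against CTL, used in the choice, 2 of 8 were past the threshold, Nrp1 and Egfl7, both higher, where 8.30% of all genes were. In IPC against CTL the same 2 genes passed, both higher (3.61% of all genes), and in APC against CTL 1 did, Egfl7, higher (3.26%). In IPC_TRI against CTL 1 passed, Adm, lower (15.7%), and in APC_TRI against CTL 0 did in limma (7.89%), with 1 at an unadjusted p under 0.05. The median change of the 8 was 0.33 in ISCH against CTL, -0.09 in IPC_TRI and -0.49 in APC_TRI, where the median of all genes lay between -0.02 and 0.01. In IPC against ISCH 0 of 8 passed in limma (0.0951% of all genes), with 2 at an unadjusted p under 0.05, and in APC against ISCH, also used in the choice, 1 was past the threshold, Nrp1, lower (0.127%). With test ischaemia against the trigger alone, 2 of 8 passed in IPC, Adm and Edn1 (22.9%), and 2 in APC, Egfl7 and Edn1 (17.2%), all higher. The full protocols did not separate (0 of 8 in limma, 1 at an unadjusted p under 0.05, 0% of all genes), nor did the triggers (0 of 8, 2 at an unadjusted p under 0.05, 0.349%). Several of these comparisons share the CTL or the ISCH arrays. Egfl7 was chosen in part on its CTL arrays, so its calls in IPC and APC against CTL are not independent of the choice. Signals of the 5 and 5 arrays did not overlap for 9.64% of all genes in ISCH against CTL, 6.94% in IPC and 6.66% in APC. That share was 9.00% in IPC_TRI and 12.5% in APC_TRI against CTL, and 2.95% in IPC and 4.18% in APC against ISCH. It was 11.3% in IPC and 16.1% in APC against the trigger alone, 0.983% between IPC and APC, and 1.36% between the triggers.

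**Figure D2:**
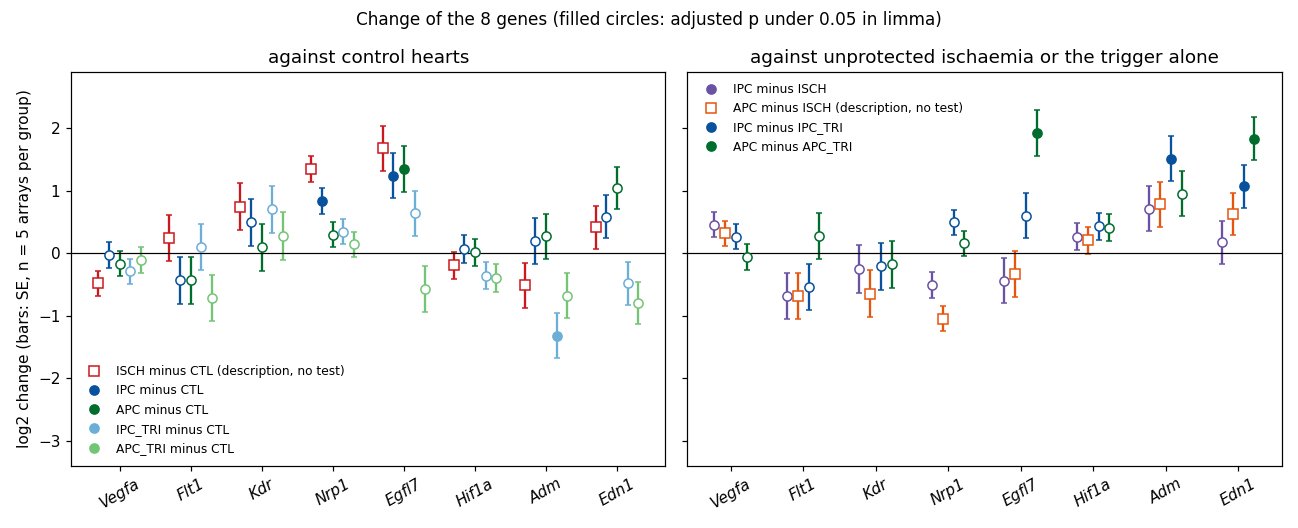
Log2 change of each of the 8 genes (points) with its SE (bars), 5 arrays per group; filled circles passed at an adjusted p under 0.05 in limma, and open squares are the 2 comparisons used to choose the genes, shown as descriptions. In the left panel the filled circles are Nrp1 and Egfl7 in IPC, Egfl7 in APC and Adm in IPC_TRI. Those of Egfl7 there use the CTL arrays on which it was chosen. In the right panel they are Adm and Edn1 in IPC minus IPC_TRI, and Egfl7 and Edn1 in APC minus APC_TRI.

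Vegfa, the ligand, was measured by 4 probe sets that did not move alike. On the brightest, rc_AA850734_at, the signal was 3149, 4624, 2734, 3580.2 and 2954 in the CTL arrays and 2045, 2576, 1688, 2913 and 2629 in the ISCH arrays. In IPC it was 3566, 4347, 3565, 3971 and 1918, and in APC 3314, 3925, 2675, 2968 and 2686. ISCH lay lowest on average but its arrays overlapped those of CTL, and 1 IPC array, replicate 5, lay far below the other 4. The trigger groups ran from 1778 to 4326 (IPC_TRI) and from 2614 to 3792 (APC_TRI). The ISCH minus CTL difference was -0.48 ± 0.21 and IPC minus ISCH was 0.46 ± 0.21, which did not pass (limma, adjusted p = 0.40). The second brightest, L20913_s_at, ran alongside it over the 30 arrays (r = 0.78), with means from 2460.2 ± 1071 in IPC_TRI to 3495 ± 1159.7 in IPC (SD, n = 5), and did not pass in any of the 13 comparisons. Without IPC 5 it passed in IPC against IPC_TRI (0.71).

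The other Vegfa probe sets, M32167_at and M32167_g_at, carry the same sequence name and parted in the trigger groups. On M32167_g_at the signal was 569, 951, 787, 877 and 655 in CTL, 437, 221, 569, 444 and 352 in IPC_TRI, and 497, 274, 401, 391 and 365 in APC_TRI. All IPC_TRI and APC_TRI arrays lay below the lowest CTL array, the highest IPC_TRI array by less than 1 unit of signal. It was lower than CTL by 1.96-fold in IPC_TRI (-0.97 ± 0.25, limma, adjusted p = 0.0083) and by 1.91-fold in APC_TRI (-0.93 ± 0.25, adjusted p = 0.015). The IPC_TRI call ended with array weights (-0.72) and when CTL and IPC_TRI were fitted alone (-0.97), and the APC_TRI call without CTL 2 (-0.84). With test ischaemia it was back near CTL, at 717 ± 179.9 in IPC and 736 ± 153 in APC, against 768 ± 157 in CTL (SD, n = 5).

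M32167_at went the other way on average. Its mean was 1638 ± 205 in CTL, 2159.8 ± 938 in IPC_TRI and 2386 ± 575 in APC_TRI (SD, n = 5), with differences from CTL of 0.38 ± 0.26 and 0.58 ± 0.26 that did not pass (limma, adjusted p = 0.31 and 0.15). The first passed without IPC_TRI 2 (0.69), and the second with only the 2 groups in the fit (0.58) and with array weights (0.57). The ratio of M32167_at to M32167_g_at ran from 1.84 to 2.67 over the 20 CTL, ISCH, IPC and APC arrays. In IPC_TRI it ran from 3.68 to 9.17 and in APC_TRI from 4.06 to 8.25, so the trigger arrays did not overlap the rest. Of 514 such pairs of probe sets on the array, 8 shifted more between trigger and other arrays. In IPC_TRI against CTL both probe sets of 34 pairs passed, and in 5 of those they went opposite ways. The log2 ratio of the beta-actin 3′ to 5′ control probe sets, often read as a measure of RNA integrity, also stood lower in the trigger groups, at -0.99 to 0.05 in IPC_TRI and -0.70 to -0.01 in APC_TRI against -0.31 to 0.31 in CTL. The same ratio for Gapdh stood higher there, at 0.05 to 0.30 in IPC_TRI and 0.04 to 0.42 in APC_TRI against -0.24 to 0.01 in CTL, so the 2 controls went opposite ways. In a fit adjusted for the beta-actin ratio, added after seeing the data, M32167_g_at had -0.99 and -0.95 and M32167_at had -0.02 and 0.25. Since that ratio itself differed between the trigger groups and CTL, its part cannot be told apart from that of the trigger. The cause of the split was not tested.

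**Figure D3:**
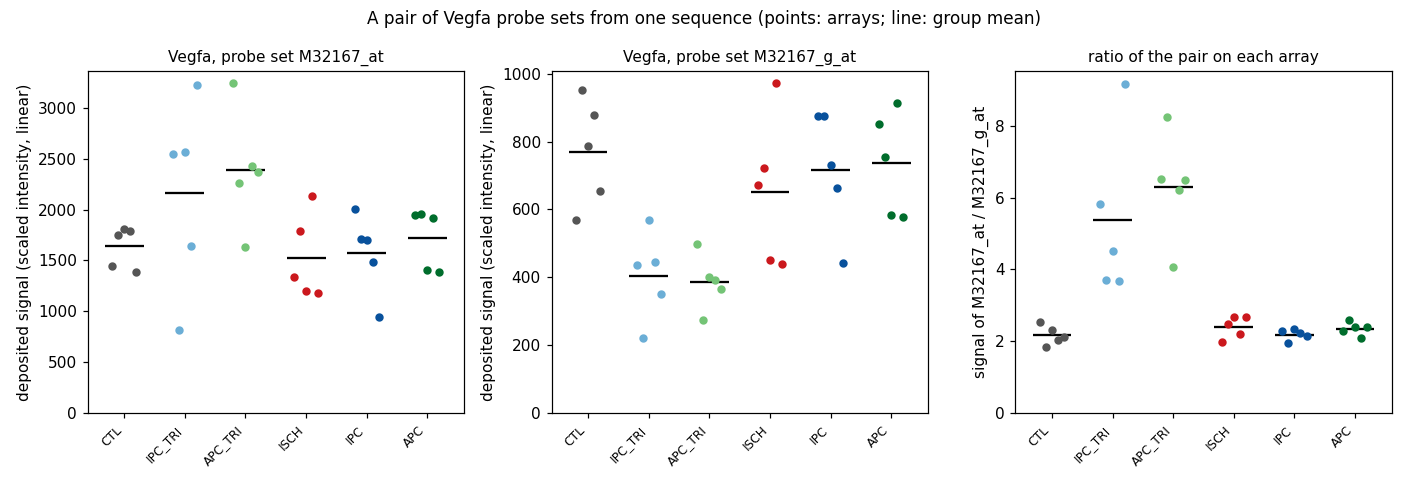
Deposited signal (linear scale) of 2 Vegfa probe sets and, in the right panel, their ratio, by group; points are arrays and lines are means of 5 arrays. The ratio lies at or below 2.67 on the CTL, ISCH, IPC and APC arrays and at or above 3.68 on every IPC_TRI and APC_TRI array.

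Among the receptors Nrp1 is the co-receptor for VEGF-A and for class 3 semaphorins. It was chosen on its APC and ISCH arrays, so its differences are not ranked against those of Flt1 and Kdr. Its signal was 446, 278, 479.5, 569 and 424 in CTL and 750.3, 929, 1817, 1124 and 1074 in ISCH. In IPC it was 669, 815, 749.8, 589 and 1129, and in APC 686, 474, 569.9, 383 and 495. All ISCH and all IPC arrays lay above the highest CTL array, while APC arrays overlapped CTL and lay below every ISCH array. ISCH 3, at 1817, stood above the other ISCH arrays. In order, the group means were 1139 ± 406 in ISCH, 790.5 ± 207 in IPC, 560.1 ± 87.2 in IPC_TRI, 522 ± 113 in APC, 481 ± 76.3 in APC_TRI and 439 ± 106 in CTL (SD, n = 5), and the lowest 4 lay within their spread of each other.

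The ISCH signal of Nrp1 was 2.54-fold that of CTL (1.34 ± 0.20), and the change lay between 1.16 and 1.48 over the 22 alternatives tried, each array left out in turn among them. In IPC it was 1.79-fold (0.84 ± 0.20, limma, adjusted p = 0.011), which did not pass without CTL 2 (0.71) or IPC 5 (0.71). In APC the difference from CTL was 0.30 ± 0.20 (adjusted p = 0.72), and the triggers had 0.35 ± 0.20 and 0.14 ± 0.20. APC was lower than ISCH by 2.06-fold (-1.05 ± 0.20). Over the 22 alternatives this difference lay between -1.21 and -0.86, smallest in size without ISCH 3. IPC and APC differed by 0.54 ± 0.20 (95% interval 0.12 to 0.96), which did not pass. IPC minus ISCH was -0.51 ± 0.20 (95% interval -0.92 to -0.09) and passed only with array weights (-0.70). Nrp1 was chosen on its APC and ISCH arrays. The tests of APC against CTL, IPC against APC and IPC against ISCH each use 1 of these groups and are not independent of the choice.

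Flt1 and Kdr, the receptor kinases, did not pass in any comparison. Flt1 was 353, 321, 395, 401 and 374 in CTL, 415, 387, 479, 469 and 446 in ISCH and 259, 225, 342, 282 and 190.5 in APC. The APC arrays lay below all ISCH arrays. IPC ran from 183 to 449, with replicate 5 the highest. The changes from ISCH were -0.68 ± 0.37 in IPC (limma, adjusted p = 0.52) and -0.68 ± 0.37 in APC. APC_TRI split widely, at 67.4, 386, 72.9, 574 and 376, with 2 arrays far below the other 3. Kdr had means from 134 ± 81.7 in CTL to 239 ± 113 in ISCH (SD, n = 5), and its arrays overlapped in every comparison. Its difference between ISCH and CTL was 0.74 ± 0.38, with a 95% interval of -0.02 to 1.51, and between IPC and CTL 0.49 ± 0.38 (adjusted p = 0.74).

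Egfl7 was higher in APC than after the anaesthetic trigger alone, while IPC did not separate from the ischaemic trigger. Its higher signals in IPC and in APC than in CTL rest in part on the CTL arrays through which it was chosen. On rc_AA893770_g_at the CTL arrays had 73.7, 194, 183, 134 and 189.5 and the ISCH arrays 1098, 478, 324, 563 and 369. IPC had 246, 319, 432, 323 and 618, and APC 434, 234, 654, 423 and 350.5. No array of these 3 groups overlapped CTL, and ISCH 1 had the highest signal of all. The trigger groups had 147, 351, 186, 235 and 502 in IPC_TRI and 78.4, 233, 106, 57.2 and 84.5 in APC_TRI, which overlapped CTL. ISCH was 3.20-fold CTL (1.68 ± 0.36), IPC 2.36-fold (1.24 ± 0.36, limma, adjusted p = 0.048) and APC 2.54-fold (1.35 ± 0.36, adjusted p = 0.025). The IPC and APC differences use the CTL arrays on which Egfl7 was chosen, so their p-values are not independent of the choice.

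The IPC call of Egfl7 ended when any of CTL 1, CTL 3, CTL 4, CTL 5, IPC 2, IPC 3, IPC 4 or IPC 5 was left out (1.02 to 1.31), at a pseudocount of 1, without a filter and with the replicate block. The APC call ended without APC 1, APC 3, APC 4, CTL 1 or CTL 4 (1.12 to 1.34). Against its own trigger APC was 3.79-fold higher (1.92 ± 0.36, limma, adjusted p = 3.2e-04), with no overlap between the 5 and 5 arrays (16.1% of all genes). The margin was narrow, with 234.1 in the lowest APC array and 233.1 in the highest APC_TRI array. IPC against IPC_TRI had 0.60 ± 0.36 (adjusted p = 0.24). IPC_TRI and APC_TRI differed by 1.21 ± 0.36, which did not pass (adjusted p = 0.11) except without IPC_TRI 1 (1.47). The dim probe set rc_AA893770_at was below the filter. It had 33.5, 32.3, 34.2, 21.4 and 29.6 in CTL and 102, 64.5, 70.2, 92.6 and 83.3 in ISCH, again without overlap, and 30.7 to 74.5 in IPC, where 4 of 5 arrays lay between 30.7 and 42.8.

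Other measures also differed between the groups. The spiked-in bacterial transcripts averaged 12.0 ± 0.61 on the log2 scale in ISCH, 10.8 ± 0.69 in CTL and between 10.8 and 11.2 in the other groups (SD, n = 5). In a fit adjusted for the spike signal, added after seeing the data, the ISCH minus CTL difference was 1.40 for Nrp1 (1.34 without it) and 0.78 for Egfl7 (1.68 without it). The summed signal of 8 fibroblast markers tested of 9 listed ran from 36627 to 70355 in ISCH, against 23019 to 29502 in CTL, 28310 to 54487 in IPC and 22239 to 33672 in APC. Of the 8 markers 5 were higher in ISCH than in CTL (8.30% of all genes passed), with a median of 0.80. In IPC and APC against CTL 0 passed in limma (3.61% and 3.26% of all genes) and 0 had an unadjusted p under 0.05. In the triggers the sum ran from 36465 to 75370 (IPC_TRI) and from 39308 to 43395 (APC_TRI). Only 1 of 8 markers, Dcn, passed in each against CTL (15.7% and 7.89% of all genes), and the medians were -0.20 and -0.26. In APC against ISCH the median was -0.84, with 0 past the threshold in limma (0.127% of all genes) and 7 at an unadjusted p under 0.05. The summed signal of 7 endothelial markers tested of 16 listed ran from 4367 to 6983 in ISCH, 4321 to 5416 in IPC, 3682 to 4816 in APC and 5341 to 7283 in CTL. In APC against CTL their median change was -0.05, and 2 of 7 passed, Sele and Selp, both lower (3.26% of all genes). Their part in the results was not tested. In tissue RNA, fewer cells of a type and less RNA per cell cannot be told apart.

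Hif1a, the oxygen-regulated factor, did not pass in any comparison. Its signal was 371, 403, 386, 352 and 195 in CTL, 388, 293, 260.4, 312 and 216 in ISCH, 368, 417, 314, 367 and 248 in IPC and 372, 402, 227, 335 and 304 in APC. The 6 group means lay between 254 (APC_TRI) and 343 (IPC), and the arrays of all groups overlapped. The difference between ISCH and CTL was -0.20 ± 0.22 with a 95% interval of -0.64 to 0.25, and that between IPC and IPC_TRI was 0.43 ± 0.22 (limma, adjusted p = 0.16).

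Adm, the dilator peptide, was lowest after the ischaemic trigger. Its signal was 222, 243, 153, 223 and 169 in CTL, 60.9, 38.5, 118, 208 and 73.1 in IPC_TRI and 189.5, 136, 79.7, 165 and 77.1 in APC_TRI. With test ischaemia it was 66.9, 233, 172, 83.6 and 241 in ISCH, 270.1, 206, 212, 233 and 209.8 in IPC and 283, 257, 204, 194 and 265 in APC. The IPC and APC arrays were tightly grouped, the ISCH arrays split into 3 within the CTL range and 2 far below it, and 1 IPC_TRI array, replicate 4, lay within the CTL range. IPC_TRI was 2.49-fold lower than CTL (-1.32 ± 0.36, limma, adjusted p = 0.013). The call ended with array weights (-0.87) and when CTL and IPC_TRI were fitted alone (-1.32). APC_TRI had -0.68 ± 0.36 (adjusted p = 0.24), and the 2 triggers did not separate (-0.64 ± 0.36, adjusted p = 0.43).

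IPC was 2.85-fold higher in Adm than IPC_TRI (1.51 ± 0.36, limma, adjusted p = 0.0031), a call kept when any of the 10 arrays was left out. APC lay above all APC_TRI arrays (0.95 ± 0.36) but did not pass (limma, adjusted p = 0.065), except without APC_TRI 1 (1.11), at a pseudocount of 64 (0.74), with median centring (0.98) and in 3 other fits. Against CTL, IPC (0.20 ± 0.36) and APC (0.27 ± 0.36) did not pass either. IPC minus ISCH was 0.71 ± 0.36 and did not pass (limma, adjusted p = 0.48), and APC minus ISCH, a description, was 0.78 ± 0.36. Arrays overlapped in both.

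Edn1, the constrictor peptide, had its highest signal in APC and its lowest in APC_TRI. It was 310.4, 284, 212, 301 and 206 in APC, 96.7, 74.3, 85.4, 90.4 and 19.4 in APC_TRI and 129, 118, 169.9, 99.7 and 88.2 in CTL. In IPC it was 308, 186, 272, 110.3 and 111, in IPC_TRI 196, 70.1, 103, 119 and 50.3, and in ISCH 239, 186, 157, 152 and 150.0. Every APC array lay above every CTL and APC_TRI array, and the IPC arrays split into 3 high and 2 near the CTL mean. APC was 3.56-fold higher than APC_TRI (1.83 ± 0.34, limma, adjusted p = 2.5e-04), and the call held when any of the 10 arrays was left out. Of 6 smooth muscle and pericyte markers tested of 7 listed 3 fell in the same comparison, where 17.2% of all genes passed. They were Acta2 (-1.28 ± 0.34, adjusted p = 0.0082), Tagln (-0.98 ± 0.35, adjusted p = 0.047) and Des (-0.47 ± 0.14, adjusted p = 0.016). The summed signal of the 6 markers ran from 11940 to 14270 in APC and from 14430 to 23166 in APC_TRI, without overlap, and its part in the Edn1 and Egfl7 changes was not tested.

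IPC was 2.10-fold higher in Edn1 than IPC_TRI (1.07 ± 0.34, limma, adjusted p = 0.022). That call ended without IPC 1 (0.89), IPC 3 (0.93) or IPC_TRI 5 (0.77), on the values as deposited (0.79), with array weights (0.93), when the 2 groups were fitted alone (1.07) and in the fit adjusted for the beta-actin ratio (1.21). Against CTL, APC had 1.04 ± 0.34 (adjusted p = 0.099), which passed at a pseudocount of 64 (0.83), with the replicate block (1.04) and with only the 2 groups in the fit (1.04). ISCH minus CTL was 0.41 ± 0.34, and IPC minus CTL 0.58 ± 0.34 (adjusted p = 0.57).

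Whether the change with test ischaemia differed after a trigger was tested as the difference of 2 differences, (IPC minus IPC_TRI) or (APC minus APC_TRI) minus (ISCH minus CTL). After the ischaemic trigger 2 of 8 genes were past the threshold, Adm (higher) and Nrp1 (lower), where 13.0% of all genes were; for Nrp1 the contrast holds the ISCH arrays on which it was chosen. For Adm, IPC itself did not separate from ISCH (0.71 ± 0.36, limma, adjusted p = 0.48). Adm rose by 1.51 ± 0.36 from IPC_TRI to IPC and had -0.51 ± 0.36 from CTL to ISCH, a difference of 2.03 ± 0.51 (limma, adjusted p = 0.010). It kept its call without any single array of the 4 groups and lost it with the spike signal as a covariate (1.08). In the same contrast 4 of 10 cardiomyocyte markers were higher, Myh6, Ryr2, Pln and Myl2, with a median of 0.18; their part was not tested. For Nrp1 the difference was -0.85 ± 0.29, and it lay between -1.08 and -0.50 over the 32 alternatives. The -0.50 came from median centring, which moved the median of all probe sets from 0.07 to 0.29 here.

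After the anaesthetic trigger 1 of 8 genes was past the threshold, Nrp1, where 7.83% of all genes were. Its difference, -1.19 ± 0.29, holds the APC and ISCH arrays through which Nrp1 was chosen and is a description; it lay between -1.35 and -1.01 over the 32 alternatives. Adm had 1.46 ± 0.51 (limma, adjusted p = 0.070) and Edn1 1.42 ± 0.48 (adjusted p = 0.062), which did not pass. Adm passed in 4 of 31 alternatives and Edn1 in 6 of 31. With median centring Adm passed at 1.52 and Edn1 at 1.43, and the median of all probe sets moved from 0.04 to 0.15. Both also passed with only the contrast's groups (1.46 and 1.42) and with array weights (1.28 and 1.35). Adm further passed without ISCH 2 (1.65). Edn1 further passed at a pseudocount of 64 (1.03), with the replicate block (1.42) and without ISCH 1 and IPC_TRI 5 together. For Vegfa the brightest probe set had 0.75 ± 0.29 after the ischaemic trigger (adjusted p = 0.082), and passed on the values as deposited (0.89), with median centring (1.24), without IPC 5 (0.93) and without IPC_TRI 4 (0.92). M32167_g_at had 1.12 ± 0.35 and 1.15 ± 0.35 after the 2 triggers (adjusted p = 0.031 and 0.037, limma). The first call ended in 12 of 32 alternatives. Among single arrays these were CTL 2, CTL 4, IPC 1, IPC 2, IPC_TRI 2, IPC_TRI 5, ISCH 3 and ISCH 5, each left out (0.94 to 1.07). It also ended with only the contrast's groups (1.12), without ISCH 1 and IPC_TRI 5 together (1.06), and with the spike (1.20) or beta-actin (1.14) covariate. The second ended in 13 of 32. Among single arrays these were APC 1, APC 2, APC 4, APC_TRI 2, APC_TRI 4, APC_TRI 5, CTL 2, CTL 3, CTL 4, ISCH 3 and ISCH 5, each left out (1.02 to 1.15). It also ended without a filter (1.15) and with the spike covariate (1.23).

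**Figure D4:**
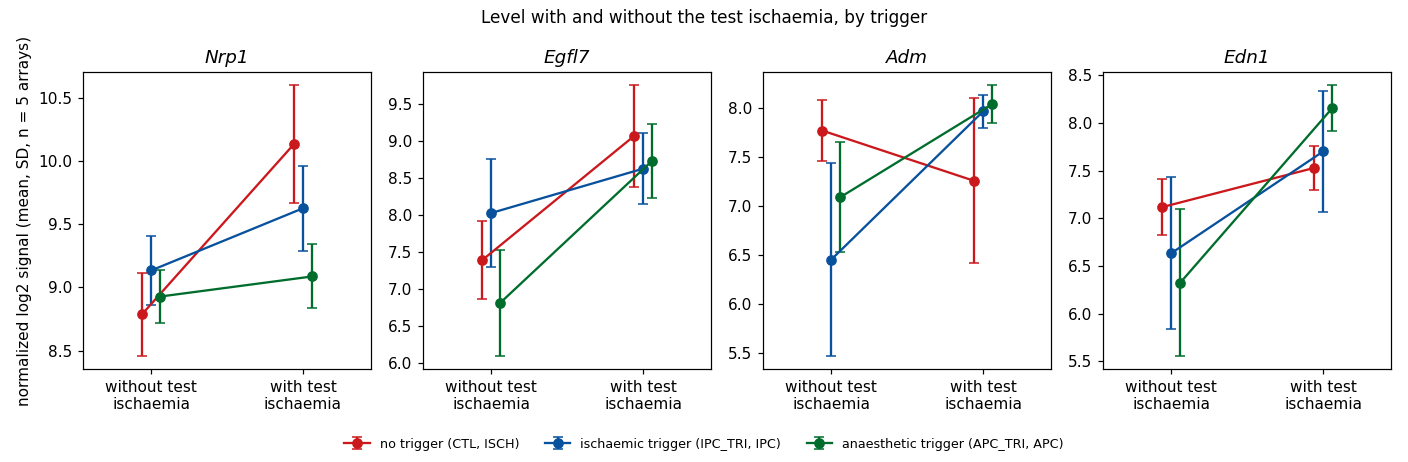
Normalized log2 signal (mean and SD of 5 arrays) of Nrp1, Egfl7, Adm and Edn1 without and with test ischaemia, with a line for no trigger (CTL to ISCH), the ischaemic trigger (IPC_TRI to IPC) and the anaesthetic trigger (APC_TRI to APC). The Nrp1 line climbs most without a trigger, by 1.34; the Adm line climbs by 1.51 from IPC_TRI to IPC, and from CTL to ISCH its difference is -0.51, which did not pass.

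Over the 30 arrays the 8 genes did not form 1 pattern. The highest correlation between 2 of them was 0.67 (Hif1a and Edn1), with 0.63 left after the group means were removed. Nrp1 and Egfl7 had 0.54 across arrays but -0.01 within groups, and Vegfa and Adm had 0.50 and 0.53. Vegfa had -0.30 with Flt1, -0.31 with Kdr and -0.40 with Nrp1, and -0.20, -0.20 and -0.27 within groups. The genes most like Nrp1 by Pearson's r were Plpp3 (0.81), Col5a2 (0.76) and Rgs4 (0.76). For Egfl7 they were Nol3 (0.79), Prkch (0.77) and Myl6b (0.76), for Adm B4galt1 (0.82), Smarcd2 (0.78) and Dbi (0.78), and for Edn1 Klf4 (0.80), Dnaja1 (0.79) and Pls3 (0.79). These are descriptions over arrays that share groups and scaling.

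Of 18 further VEGF, angiopoietin and growth factor genes 7 were tested. In ISCH, IPC and APC against CTL 0 passed in limma, where 8.30%, 3.61% and 3.26% of all genes did. At an unadjusted p under 0.05 there were 2, 1 and 1, and the medians were -0.17, -0.15 and -0.24. In IPC_TRI against CTL, where 15.7% of all genes passed, Pdgfb, which encodes a growth factor that recruits pericytes, fell (-1.15 ± 0.35, adjusted p = 0.024). In IPC against IPC_TRI, where 22.9% of all genes passed, it rose (2.05 ± 0.35, adjusted p = 8.9e-05). The fibroblast growth factor gene Fgf2 (-0.75 ± 0.25, adjusted p = 0.030) and the receptor gene Fgfr1 (-0.71 ± 0.23, adjusted p = 0.027) fell there. Vegfb, a VEGF family ligand of Flt1, passed in 1 comparison, the difference of differences after the anaesthetic trigger (0.71 ± 0.19, adjusted p = 0.017, 7.83% of all genes). Fgfr1 also fell in APC against APC_TRI (-0.69 ± 0.23, adjusted p = 0.036), where 17.2% of all genes passed.

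Of 29 genes of the hypoxia-inducible factor pathway and its targets 17 were tested. In ISCH against CTL 2 were higher, 3 lower and 12 did not pass (8.30% of all genes passed), with a median of -0.05 where that of all genes was -0.01. Pfkfb3, which drives glycolysis (-2.61 ± 0.29, adjusted p = 1.6e-07), and Pdk1, an inhibitor of pyruvate dehydrogenase (-0.73 ± 0.21, adjusted p = 0.021), were lower. Igfbp3, which binds insulin-like growth factors (1.12 ± 0.23, adjusted p = 0.0014), and P4ha1, a collagen hydroxylase (0.67 ± 0.20, adjusted p = 0.027), were higher. Pfkfb3 also fell in IPC (-2.16 ± 0.29, adjusted p = 5.6e-06) and in APC (-2.08 ± 0.29, adjusted p = 7.3e-06), and P4ha1 rose in IPC (0.89 ± 0.20, adjusted p = 0.0042). In IPC_TRI 3 of 17 rose and 2 fell, where 15.7% of all genes passed, among them Bnip3l, a mitophagy receptor (0.62 ± 0.15, adjusted p = 0.0073), Pgk1, a glycolytic enzyme (-0.51 ± 0.14, adjusted p = 0.013), Nos2, the inducible nitric oxide synthase (-1.27 ± 0.36, adjusted p = 0.015) and Hmox1, the inducible haem oxygenase (0.60 ± 0.19, adjusted p = 0.027). In APC_TRI 1 of 17 passed (7.89% of all genes), Pgk1 (-0.52 ± 0.14, adjusted p = 0.016).

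With test ischaemia against the trigger alone, 4 of these 17 genes rose and 3 fell in IPC, where 22.9% of all genes passed, and 3 rose and 1 fell in APC, where 17.2% did. P4ha1 (0.98 ± 0.20, adjusted p = 6.5e-04) and Pgk1 (0.55 ± 0.14, adjusted p = 0.0054) rose in APC, as did Vhl, which marks the factor for breakdown (0.55 ± 0.18, adjusted p = 0.036), and Pfkfb3 fell (-1.45 ± 0.29, adjusted p = 6.8e-04). In IPC Pgk1 rose (0.63 ± 0.14, adjusted p = 0.0016), Pfkfb3 (-1.34 ± 0.29, adjusted p = 0.0015) and Bnip3l (-0.48 ± 0.15, adjusted p = 0.023) fell, and P4ha1 rose (0.61 ± 0.20, adjusted p = 0.024). In the difference of differences 4 were higher and 2 lower after the ischaemic trigger (13.0% of all genes passed), and 1 was higher and 1 lower after the anaesthetic one (7.83%). Pdk1 was higher after both (1.10 ± 0.29, adjusted p = 0.014, and 1.14 ± 0.29, adjusted p = 0.016) and Bnip3l lower after both (-0.78 ± 0.22, adjusted p = 0.017, and -0.72 ± 0.22, adjusted p = 0.037). Against ISCH 0 passed in limma (0.0951% of all genes in IPC and 0.127% in APC), with 3 at an unadjusted p under 0.05 in IPC and 5 in APC.

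Of 11 genes of the adrenomedullin and endothelin systems 4 were tested. Ackr3, a scavenger receptor that binds adrenomedullin and the chemokine Cxcl12, fell in IPC_TRI against CTL (-1.45 ± 0.44, adjusted p = 0.024) and rose in IPC against IPC_TRI (1.62 ± 0.44, adjusted p = 0.0079). These are the comparisons in which Adm fell and rose, and in which 15.7% and 22.9% of all genes passed. Ece1, the enzyme that cuts endothelin from its precursor, was higher in ISCH than in CTL (0.52 ± 0.15, adjusted p = 0.022). Edn3, another endothelin, fell in APC against APC_TRI (-1.14 ± 0.37, adjusted p = 0.031), where Edn1 rose.

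Of the 7 endothelial markers tested, Thbd was higher in ISCH than in CTL (0.66 ± 0.16, adjusted p = 0.0077). The adhesion molecule genes Sele (-2.22 ± 0.42, adjusted p = 5.9e-04) and Selp (-1.94 ± 0.27, adjusted p = 6.3e-06) were lower. The median was 0.19, and 8.30% of all genes passed. In IPC_TRI against CTL 1 of 7 passed (15.7% of all genes), Pecam1, a junction protein of endothelium (-0.62 ± 0.20, adjusted p = 0.034). In APC_TRI 0 passed in limma (7.89% of all genes) and 0 had an unadjusted p under 0.05. In IPC against CTL Selp was lower (-1.13 ± 0.27, adjusted p = 0.011), with a median of -0.45 (3.61% of all genes passed). In APC both Sele (-1.61 ± 0.42, adjusted p = 0.021) and Selp (-1.40 ± 0.27, adjusted p = 9.1e-04) were lower, with a median of -0.05 (3.26% of all genes passed). In APC against APC_TRI Thbd rose and Cav1, Sele and Selp fell (17.2% of all genes passed), and in IPC against IPC_TRI Cav1 and Selp fell (22.9%).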

How the data were processed

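Left ventricular RNA from rats was measured on 30 arrays of 8799 probe sets. Per the labels, RNA was handled by the procedures the array maker recommends. The deposited values are intensity values on a linear scale. Their 2% trimmed mean lay between 500.8 and 501 on every array and the medians between 114.6 and 189.2, so they had been scaled but not quantile normalized; the software is not given in the sources used here. No 2 arrays were identical (highest correlation 0.976). Groups were taken from the sample titles.

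The 59 control probe sets were left out, log2(signal + 16) was quantile normalized, and the dimmest 40% were dropped, leaving 5244 probe sets (3155 genes). Group means came from limma 3.58.1 (R 4.3.3, trended variances), with 13 contrasts and an F test; p-values were adjusted by Benjamini-Hochberg over all probe sets. The fit was tested on simulated data. A gene was named from probe sets with 1 symbol (7006; 308 had several). The 8 genes and the gene lists were chosen with earlier results of these data known. Named were the 8 genes, up to 4 passing genes per list and contrast by smallest p, and for genes passing the F test the 3 most correlated genes. Genes of cell type lists were named beside the results they touch.

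Alternatives were pseudocounts of 1 and 64, no filter, a 60% filter, values as deposited, median centring, a replicate block, only the contrast's groups, the mean over a gene's probe sets, and each array left out. Chosen after seeing the data were array weights, the spike and beta-actin covariates, and leaving out ISCH 1 and IPC_TRI 5 together. The labels do not tie replicate numbers to a litter or day; same-numbered arrays of different groups had residual correlations of -0.15 to 0.21, with 9 of 75 pairs over 0.1, so the numbers were not taken as pairs. Promoter sequences and coordinates are RefSeq's (GRCr8). Python 3.11.15 with pandas 2.3.3 and matplotlib 3.10.9 made tables and figures.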

Additional observations from a re-analysis of the deposited data

Results flagged for a closer look

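Of 72 sets of 5 arrays (12 probe sets in 6 groups), 5 had an array far outside the others, where chance gives about 1 in 20. Flt1 in IPC_TRI replicate 5 had a signal of 836.3, against 277.6 to 405.9 in the other 4 arrays. Edn1 in APC_TRI replicate 5 had 19.4, against 74.3 to 96.7. Egfl7 on rc_AA893770_g_at had 233.1 in APC_TRI replicate 2, against 57.2 to 106.5, and on rc_AA893770_at 74.5 in IPC replicate 5, against 30.7 to 42.8. Hif1a in CTL replicate 5 had 195.2, against 351.8 to 402.8.

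The change with test ischaemia differed after a trigger, by limma's test of the difference itself, in 5 cases. Those of Nrp1 are descriptions, since they hold the ISCH arrays, and after the anaesthetic trigger also the APC arrays, on which Nrp1 was chosen. For Nrp1 it was smaller by a log2 difference of -0.85 after the ischaemic and -1.19 after the anaesthetic trigger, and the first fell short of the threshold in 20 of 32 alternatives. For Adm it was larger after the ischaemic trigger, by 2.03. On the Vegfa probe set M32167_g_at it was larger by 1.12 after the ischaemic and 1.15 after the anaesthetic trigger, and the brightest Vegfa probe set did not pass in either. The M32167_g_at calls were lost in 12 and 13 of 32 alternatives.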

How the results depend on the processing

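Each single-gene result was set against each alternative: 3212 of these values kept their side of the threshold, 90 lost a call and 38 gained one, and 0 called results changed sign. The 3212 include results that passed in neither fit, so the tally is no measure of how well the calls held. For Egfl7 the IPC minus CTL call was lost in 11 of 22 alternatives and the APC minus APC_TRI call in 0 of 22. The counts below are of the 8 genes that passed. They stand without the share of all genes in each fit, so nothing is read from them. Those of ISCH minus CTL, APC minus ISCH, the F test and the differences of differences include genes chosen on them. Those of IPC minus CTL and APC minus CTL include Egfl7, chosen in part on its CTL arrays. At a pseudocount of 1 IPC minus CTL had 1 in place of 2; at 64 APC minus CTL and the anaesthetic difference of differences had 2 in place of 1, and APC minus APC_TRI 3 in place of 2. Without a filter IPC minus CTL and the ischaemic difference of differences had 1. With 60% of probe sets left out, Kdr, Adm and Edn1 were no longer tested, IPC_TRI minus CTL and IPC minus IPC_TRI had 0, APC minus APC_TRI and the ischaemic difference of differences had 1, and the F test had 2. On the values as deposited IPC minus IPC_TRI had 1 and the ischaemic difference of differences 3. With median centring APC minus ISCH had 0, and IPC minus IPC_TRI, APC minus APC_TRI and the anaesthetic difference of differences 3. With the replicate block IPC minus CTL and the ischaemic difference of differences had 1, and APC minus CTL and the anaesthetic one 2; 10 of 30 arrays correlated best with their own number. With only the groups of the contrast IPC_TRI minus CTL and APC minus ISCH had 0, IPC minus IPC_TRI and the ischaemic difference of differences 1, APC minus CTL 2, and APC minus APC_TRI and the anaesthetic one 3. Without ISCH 1 and IPC_TRI 5 together APC minus CTL and the anaesthetic difference of differences had 2, IPC minus IPC_TRI 1 and APC minus APC_TRI 3. With array weights IPC_TRI minus CTL had 0, IPC minus ISCH 1, IPC minus IPC_TRI 1, APC minus CTL 2, and ISCH minus CTL, IPC minus CTL, APC minus APC_TRI and the anaesthetic difference of differences 3. With the spike covariate ISCH minus CTL had 1, and APC minus ISCH and both differences of differences 0. With the beta-actin covariate APC minus ISCH had 0, and IPC minus IPC_TRI and the ischaemic difference of differences 1. The cause was not tested, beyond the fewer genes tested under the 60% filter. With each array left out in turn the counts ran from 0 to 2 in IPC minus CTL, 0 to 1 in APC minus CTL, APC minus ISCH and IPC_TRI minus APC_TRI, 1 to 2 in IPC minus IPC_TRI and the anaesthetic difference of differences, 2 to 3 in APC minus APC_TRI, 1 to 3 in the ischaemic one and 4 to 5 in the F test. Over all probe sets, the number passing ran from 157 to 933 in ISCH minus CTL (460 in the report's fit), 238 to 925 in IPC_TRI minus CTL (869), 0 to 267 in IPC minus ISCH (9) and 0 to 203 in APC minus ISCH (14). With 5 arrays a group, their number limits the precision.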
